A study of Mus musculus with 4 samples.

Results

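Red cell genes other than the globins were followed in cells of Dalton's lymphoma ascites (DLA), a mouse tumour kept by transplantation and growing in suspension in the fluid of the abdomen. The genes considered were Alas2, Slc4a1, Epb42, Ahsp, Klf1, Gata1 and Hemgn, and each probe set that the array's annotation pairs with one of these symbols was taken. This gave 6 genes with 1 probe set each out of 23410 annotated probe sets, and Ahsp, which encodes a chaperone of α-globin, was not analysed here. The data were 4 one-colour arrays of total RNA, 2 control and 2 irradiated, and the labels call the arrays of a group biological replicates. All animals were male Swiss albino mice, 4 to 5 months old, that carried 1000000 implanted DLA cells. The irradiated mice received 2 Gy of electrons to the whole body on day 8 after implantation, the control mice received no radiation, and RNA was taken from the peritoneal cells 48 h after the exposure. The sources used here do not say whether mice were pooled, so the p-values refer to spread between these arrays and not between mice. The fit also draws on the spread of all probe sets, so a p-value does not rest on the spread of that gene alone. The comparison asked whether red cell genes were lower in irradiated arrays, where the adult globin probe sets were.

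Red cells form in marrow and spleen from nucleated precursors. The transcription factors Gata1 and Klf1 switch on globin, haem and membrane genes there, and the precursor then loses its nucleus and leaves as a reticulocyte that still holds RNA. Alas2 is the first enzyme of haem synthesis in red cell precursors, Slc4a1 is the anion exchanger called band 3, Epb42 is protein 4.2, which ties band 3 to the membrane skeleton, and Hemgn is a nuclear protein of blood precursors.

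The promoters of 4 of these genes are shown because Alas2 and Klf1 were lower on both irradiated arrays, whereas Gata1 and Hemgn were low on 1 of them. Each window is the 250 bases before the RefSeq start of the gene (build GRCm38.p6), at chrX:150547167-150547416 on the plus strand for Alas2, chr8:84901732-84901981 on the plus strand for Klf1, chrX:7967911-7968160 on the minus strand for Gata1 and chr4:46404184-46404433 on the minus strand for Hemgn. Capitals mark matches on either strand to a GATA word or to the KLF word CCNCNCCC. A GATA word was AGATAA, the same with G at its end (AGATAG), or either of these with T in place of the first base, namely TGATAA and, ending in G, TGATAG.
Alas2: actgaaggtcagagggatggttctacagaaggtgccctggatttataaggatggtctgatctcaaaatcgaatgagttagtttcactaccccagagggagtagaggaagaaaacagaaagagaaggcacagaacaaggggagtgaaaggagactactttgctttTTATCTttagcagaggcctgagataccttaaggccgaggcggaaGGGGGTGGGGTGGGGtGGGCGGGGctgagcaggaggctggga
Klf1: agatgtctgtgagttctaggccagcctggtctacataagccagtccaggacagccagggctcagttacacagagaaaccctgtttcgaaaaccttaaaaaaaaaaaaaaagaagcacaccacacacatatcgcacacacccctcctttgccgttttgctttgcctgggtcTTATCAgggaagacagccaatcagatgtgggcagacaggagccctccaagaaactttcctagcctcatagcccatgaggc
Gata1: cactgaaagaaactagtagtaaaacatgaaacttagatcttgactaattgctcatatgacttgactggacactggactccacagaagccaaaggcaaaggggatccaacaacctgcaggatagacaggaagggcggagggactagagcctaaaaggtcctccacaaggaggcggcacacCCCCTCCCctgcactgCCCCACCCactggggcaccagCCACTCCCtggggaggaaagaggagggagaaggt
Hemgn: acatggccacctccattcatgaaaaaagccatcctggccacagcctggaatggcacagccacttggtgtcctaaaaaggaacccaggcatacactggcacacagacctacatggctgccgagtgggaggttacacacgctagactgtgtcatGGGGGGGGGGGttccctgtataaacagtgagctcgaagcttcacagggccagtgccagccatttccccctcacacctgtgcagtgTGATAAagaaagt

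The Alas2 window held 1 GATA word, at bases −86 to −81 before the start, and 4 KLF words between −42 and −19, 3 of which overlap. The Klf1 window held 1 GATA word at −80 to −75 and 0 KLF words. The Gata1 window held 0 GATA words and 3 KLF words, the nearest to the start at −34 to −27. The Hemgn window held 1 GATA word at −13 to −8, and its 4 KLF words overlap in 1 run of G. Epb42 also had a window, with 1 GATA word at −226 to −221 and 0 KLF words. Of 32851 windows of the same length in the RefSeq promoter table, 26.5% held a GATA word and 45.9% a KLF word. Among the members, GATA words stood in 4 of 5 windows and KLF words in 3 of 5. Slc4a1 and Ahsp had no window here. A match describes letters, not a bound site. Binding was not measured here.

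Values are log2 intensities normalised between arrays by RMA, and an SD is over the 2 arrays of a group. No member passed the adjusted threshold of 0.05 in limma, where adjusted p-values ran from 0.405 to 0.984 and 0.0256% of all probe sets were called. At an unadjusted p under 0.05 in limma, 2 members were lower and 0 higher, against 4.64% lower and 4.82% higher among all probe sets, 9.46% in all. The groups did not overlap for 3 of the 6, with 2 lower and 1 higher in irradiated arrays, against 23.6% lower and 17.9% higher among all probe sets. The median member difference was −0.15 against −0.02 for all probe sets, with 5 of 6 below 0 against 54.4%. Of 18 genes of other tissues, used below as a dim reference, 12 were also below 0, with a median of −0.075. With irradiated replicate 2 left out, 3 of the 6 members were below 0 and their median was 0.06.

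Among the enzymes, Alas2 measured 6.47 and 6.34 on the control arrays and 5.84 and 5.58 on the irradiated arrays. Both irradiated arrays lay below both controls, replicate 2 the lower. The means were 6.41 ± 0.09 and 5.71 ± 0.18 (SD, n = 2 arrays each), a difference of −0.70 on the log2 scale or 1.62-fold, with a 95% interval from −1.05 to −0.34 (limma adjusted p = 0.405, unadjusted p = 0.00407). This was the largest difference among the 6 genes. It ran from −0.83 to −0.57 over all other settings tried.

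Among the regulators, Klf1, an activator of adult β-globin, measured 6.40 and 6.36 on control and 6.09 and 6.03 on irradiated arrays. Both groups were tight and did not overlap. The difference was −0.32 (1.25-fold), with a 95% interval from −0.60 to −0.04 (limma adjusted p = 0.50, unadjusted p = 0.0322). Leaving out any 1 array moved it no further than −0.35 or −0.29.

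Gata1, the master regulator of red cell and platelet precursors, measured 5.86 and 5.75 on control arrays and 5.92 and 5.28 on irradiated arrays. Irradiated replicate 1 was the highest of the 4 and replicate 2 the lowest, so the groups overlapped. The difference of −0.21 had a 95% interval from −0.79 to 0.38 (limma adjusted p = 0.777). Left without irradiated replicate 2 it came to 0.12, and −0.53 when replicate 1 of that group was dropped instead.

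Hemgn, which Gata1 is known to activate, measured 5.94 and 6.03 on control arrays and 6.16 and 5.61 on irradiated arrays. Its order was like that of Gata1, with irradiated replicate 1 on top and replicate 2 at the bottom. The lens gene Cryaa had this order too, with 6.37 and 6.35 on control and 6.58 and 6.02 on irradiated arrays. How many probe sets share the order was not counted, and a tie between Gata1 and Hemgn was not tested. The difference of −0.10 had a 95% interval from −0.62 to 0.42 (limma adjusted p = 0.889), with 0.18 when irradiated replicate 2 was dropped and −0.38 when replicate 1 was.

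Among the membrane genes, Slc4a1 measured 6.36 and 6.43 on control arrays and 6.55 and 6.63 on irradiated arrays. It was the 1 member whose irradiated arrays both lay above the controls. The difference was 0.20 (1.14-fold), with a 95% interval from −0.09 to 0.48 (limma adjusted p = 0.618). Its partner Epb42 measured 5.37 and 5.38 on control and 5.37 and 5.36 on irradiated arrays. These 4 values spanned less than those of any other member, and the difference of −0.01 had a 95% interval from −0.28 to 0.26 (limma adjusted p = 0.984). The sign for Epb42 turned under quantile normalization, cyclic loess and median centring.

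**Figure D1:**
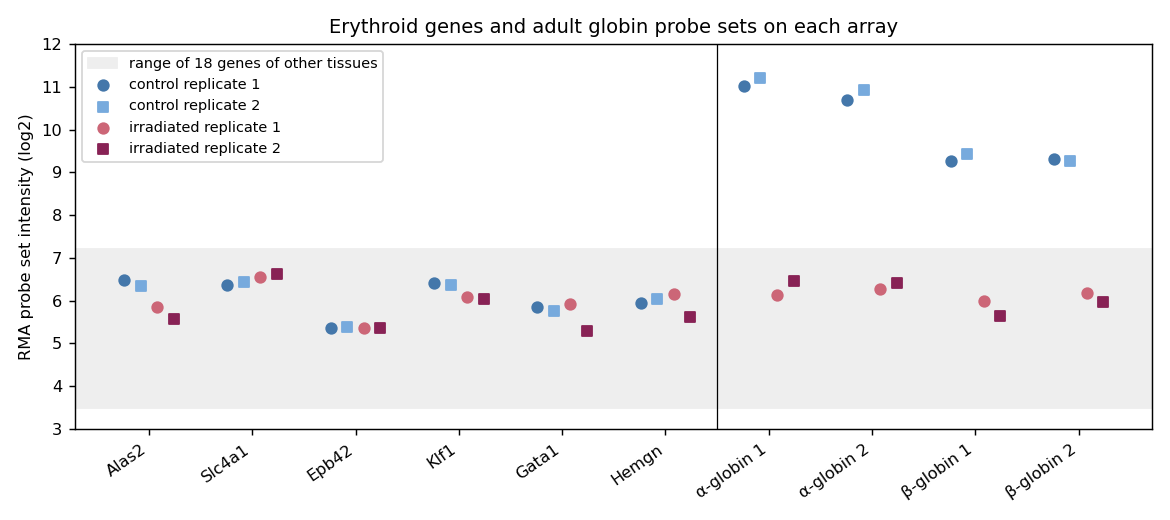
RMA intensity on the log2 scale (y axis) of 6 erythroid genes and 4 adult globin probe sets (x axis), 1 point per array. The grey band spans the lowest and highest values, 3.49 and 7.20, of 18 genes of other tissues, and all erythroid points lie in it, whereas the globin points lie above it in control arrays.

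The arrays of the irradiated group differed from each other in these genes. Irradiated replicate 2 minus replicate 1 came to −0.64 for Gata1, −0.55 for Hemgn and −0.26 for Alas2. For Klf1, Epb42 and Slc4a1 the same gap was −0.06, −0.01 and 0.08. The control arrays differed by −0.13 to 0.09. Irradiated replicate 2 was the lowest of the 4 arrays for 5 of the 6 genes, against 37.7% of all probe sets. This was not particular to them. It was also the lowest for 10 of 13 pan-leukocyte, 9 of 13 T lymphocyte and 8 of 11 platelet genes. The count was 29 of 77 for other red cell genes, 8 of 18 for genes of other tissues and 4 of 9 for B lymphocyte genes. Neutrophil and macrophage genes each gave 6 of 15.

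**Figure D2:**
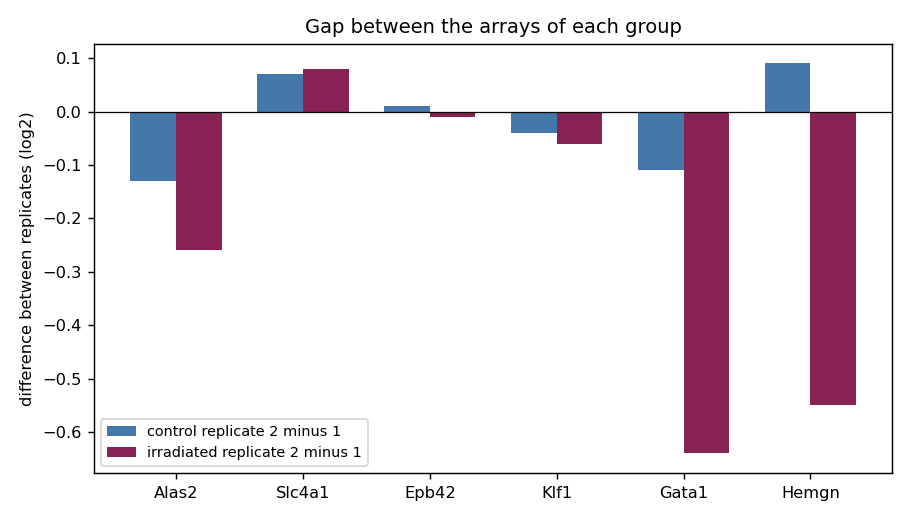
Difference between the arrays of a group on the log2 scale (y axis) for each erythroid gene (x axis), with bars from 0 for the control and the irradiated group. The longest bars are those of Gata1 and Hemgn in the irradiated group, at −0.64 and −0.55.

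The 6 profiles differed among themselves. The likeness of 2 genes was taken as the root mean square distance between their log2 profiles, each centred over the 4 arrays. The closest pairs were Gata1 with Hemgn at 0.094 and Slc4a1 with Epb42 at 0.109. This distance is also small between profiles that vary little, and Slc4a1 and Epb42 differed between the groups by 0.20 and −0.01. How many other genes lay as close to the genes of these pairs was not counted. Alas2 and Klf1, both lower in irradiated arrays, were 0.203 apart, and Alas2 and Slc4a1 were the farthest pair at 0.466. Among 19937 other genes, 72 lay within 0.1 of Alas2 over these 4 arrays. The closest were Rpl12, a ribosomal protein gene, at 0.033, 4921536K21Rik at 0.035, Phf7 at 0.036, Trp53rka at 0.049 and a variable segment of the immunoglobulin κ light chain at 0.052. None of these 5 is on the erythroid lists used here.

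All 6 members were dim. They measured between 5.28 and 6.63 on every array, and each had a mean below 6.71, the median of all probe sets. As a rough floor, 18 genes of lens, pancreas, muscle, kidney, lung, testis, hypothalamus and pituitary spanned 3.49 to 7.20, and the 6 members stayed inside that span on every array. The top of that span lies above the median of all probe sets, so lying inside it does not by itself show an absent transcript. The share of all probe sets inside it was not counted. Probe sets differ in affinity, so genes were not ranked by level, and the deposited values hold no detection call. A fall of a transcript that gives no signal above this floor would not be detectable here.

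The adult globins gave a different picture on the same arrays. The 2 probe sets that list both copies of adult α-globin measured 11.01 and 11.21, and 10.70 and 10.92, on control arrays, against 6.12 and 6.45, and 6.28 and 6.41, on irradiated arrays. They fell by 4.83 and 4.47 on the log2 scale, which is 28.3-fold and 22.1-fold, each with a limma adjusted p = 0.00729. The β-globin probe sets, also 2 and also listing several gene copies, were at 9.27 and 9.42, and at 9.32 and 9.27, on control arrays. One fell by 3.53 (11.6-fold, limma adjusted p = 0.0120) and the other fell by 3.22 (9.32-fold, limma adjusted p = 0.00831). On irradiated arrays the 4 probe sets lay between 5.65 and 6.45, inside the span of the 18 genes of other tissues, and on control arrays between 9.27 and 11.21. These folds may therefore be lower bounds on the array's scale, since a signal at background would not read lower. Whether these probe sets had reached their background was not tested. In limma 0 of the 4 passed the adjusted threshold without control replicate 1, control replicate 2, irradiated replicate 1 or irradiated replicate 2, and 0 with the replicate number as a block or with every row of the table tested, although over the fits of 3 arrays their mean difference stayed between −4.08 and −3.95.

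The other 6 globin probe sets were dim in both groups. Hba-x, Hbb-bh1 and Hbb-y, which are globins of the embryo, differed by −0.20, −0.14 and −0.02. Hbb-bh2 differed by −0.09, Hbq1b by −0.21 and Hbq1a by 0.005. Their values lay between 3.93 and 6.45, and none passed (smallest limma adjusted p = 0.607).

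The 6 members were also set against the adult globins on each array, although their low levels limited what this could show. On the control arrays they already lay inside the span of genes of other tissues. A fall as large as that of the globins may therefore not have been visible in them. That span runs across genes, and the floor of each probe set is not known. The comparison does not show whether the members' transcripts fell as far. The mean of the 4 adult globin probe sets was 10.07 and 10.21 on the control arrays and 6.14 and 6.12 on the irradiated arrays. Alas2 minus that mean came to −3.60 and −3.87 on control arrays and to −0.30 and −0.54 on irradiated arrays, so that its difference was 3.31 above that of the globins. For the other members this excess ran from 3.69 for Klf1 to 4.21 for Slc4a1. All 6 gave the smallest p that a two-sided exact permutation test of 2 against 2 arrays allows, 0.333, which stayed 0.333 after Benjamini-Hochberg adjustment over 6 comparisons. The test cannot reach 0.05 in this design and adds nothing to the values. The 95% intervals of the members reached no lower than −1.05. In bulk RNA, fewer red cells and less RNA per red cell cannot be told apart.

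**Figure D3:**
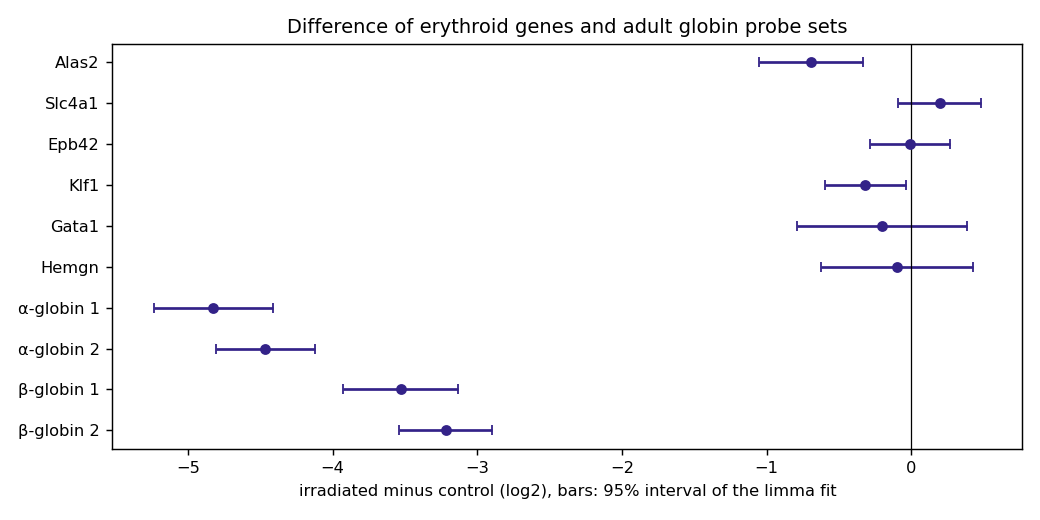
Irradiated minus control on the log2 scale (x axis) for 6 erythroid genes and 4 adult globin probe sets (y axis), with bars for the 95% interval of the limma fit. The intervals of Alas2 and Klf1 lie below 0, those of the other 4 genes include 0, and the globin probe sets lie between −4.83 and −3.22.

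None of 77 other genes of the red cell programme passed the adjusted threshold in either direction. They were those of 85 listed genes beside the members that had a probe set with 1 symbol, the other 8 were not analysed here, and where a gene had several the brightest was used. In irradiated arrays 46 were lower, 29 higher and 2 equal, with a median difference of −0.06. In limma 0 passed the adjusted threshold (smallest adjusted p = 0.449). At an unadjusted p under 0.05 in limma, 1 was lower (1.30%) and 3 were higher (3.90%), against 4.64% and 4.82% of all probe sets. Groups that did not overlap were lower for 16.9% and higher for 19.5%, against 23.6% and 17.9% of all probe sets. By list, 10 of 19 regulators and 13 of 17 membrane and skeleton genes lay inside the span of genes of other tissues on every array. The same held for 5 of 18 enzymes and late genes, 2 of 12 iron supply genes and 0 of 11 haem synthesis genes. The others exceeded that span on at least 1 array, and bulk RNA does not show which cells gave their signal. These counts have no share over all probe sets beside them, since that share was not counted.

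In the haem synthesis list, 6 of 11 genes were lower and 5 higher, with a median of −0.005. The 4 with the smallest p were Alad, Cpox, Urod and Uros, which act after Alas2 in the pathway. Alad measured 12.51 and 12.42 on control arrays and 12.25 and 11.29 on irradiated arrays, a difference of −0.70 carried mostly by irradiated replicate 2 (limma adjusted p = 0.569). Cpox differed by −0.18, Urod by 0.28 and Uros by 0.19. Alas1, the form of the first enzyme used in most cells, differed by 0.10, and Fech, which inserts iron into haem, by 0.01.

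In the iron supply list, 8 of 12 genes were higher and 4 lower, with a median of 0.15. The mitochondrial iron importer Slc25a37 (mitoferrin) measured 8.68 and 8.53 on control arrays and 9.04 and 9.72 on irradiated arrays, a difference of 0.78 (limma adjusted p = 0.496). The ferrireductase Steap3 measured 8.64 and 8.52 against 9.07 and 9.02, a difference of 0.47 (limma adjusted p = 0.449). Both genes were thus higher on each irradiated array while Alas2 was lower. Fth1, the ferritin heavy chain, differed by 0.39 and Pcbp1, which delivers iron to ferritin, by −0.20. Groups did not overlap for 6 of 12 higher and 1 of 12 lower, against 17.9% higher and 23.6% lower among all probe sets.

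Of 17 other membrane and skeleton genes, 11 were lower and 6 higher, with a median of −0.05. The smallest p belonged to Mpp1 (0.26), Tmod1 (−0.37), Cd59a (0.36) and Rhag (0.29), none of them past an unadjusted 0.05. The 2 probe sets of Tmod1, which caps actin filaments, went apart, with −0.37 for the brighter and 0.12 for the other. Ank1 and Sptb, the ankyrin and spectrin that hold band 3 in place, differed by −0.05 and −0.01. Here 13 of 17 genes lay inside the span of the 18 genes of other tissues on every array.

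Of 19 other regulators, 13 were lower, 4 higher and 2 equal, with a median of −0.07. Mafk, a small Maf partner of Nfe2, differed by 0.36. Stat5a and Stat5b, which act below the erythropoietin receptor, differed by −0.33 and −0.26. Cbfa2t3 differed by −0.23 in its brighter probe set and by −0.01 in the other. Tal1, which works in a complex with Gata1, measured 6.89 and 6.92 on control and 6.89 and 6.78 on irradiated arrays. Epor differed by −0.11 and Nfe2 by −0.18. Irradiated replicate 2 was the lowest array for 9 of these 19 genes.

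Of 18 enzymes and late genes, 12 were lower and 6 higher, with a median of −0.10. Bpgm, the enzyme that makes the red cell's 2,3-bisphosphoglycerate, measured 8.24 and 8.00 on control and 7.55 and 7.83 on irradiated arrays, a difference of −0.43 (limma adjusted p = 0.51). Prdx2, a peroxiredoxin abundant in red cells, differed by 0.33 in its brighter probe set. Its other probe set differed by 0.435 (limma unadjusted p = 0.0245, adjusted p = 0.496). Fam210b differed by −0.30 and Add1 by 0.21. The carbonic anhydrases Car1 and Car2 differed by −0.09 and −0.11.

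**Figure D4:**
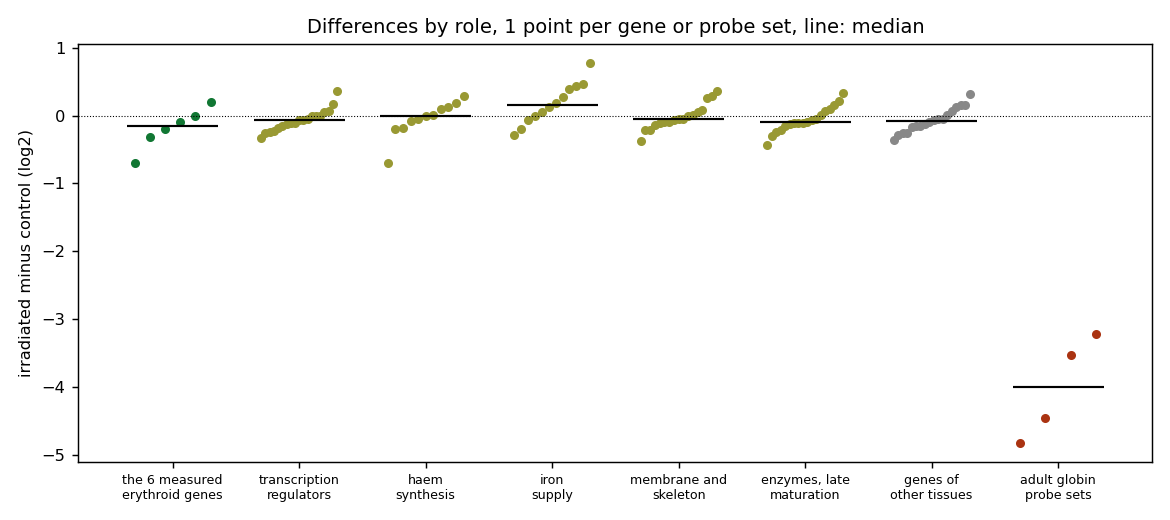
Irradiated minus control on the log2 scale (y axis) by role (x axis), 1 point per gene or probe set, with a line at the median. The erythroid lists have medians between −0.10 and 0.15, the 6 measured erythroid genes −0.15, and the 4 adult globin probe sets lie below −3.2.

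Markers of other cell types gave the setting of these values. T lymphocyte genes were lower for 11 of 13 and higher for 2, with a median of −0.14, beside −0.15 for the 6 members. Of 13 T lymphocyte genes, 12 lay inside the span of the genes of other tissues on all arrays, Cd3e, Cd3g, Thy1 and Cd4 among them, and Lat was the exception, so defining T cell markers were dim in cells labelled as a lymphoma. Neutrophil genes were lower for 12 of 15 with a median of −0.47, and their mean level was 6.57 and 6.70 on control and 6.18 and 6.44 on irradiated arrays. That mean holds Lcn2, which measured 8.04 and 8.21 on control arrays and lay far apart on irradiated arrays, at 5.80 and 10.27, and Ly6g. Of these genes, Ly6g passed the adjusted threshold upward with 3.12 (limma adjusted p = 0.00831), a call that was lost in each fit that left out 1 of the 4 arrays. Retnlg, Il1r2 and Cxcr2 differed by −2.60, −1.23 and −1.16 without passing it. Pan-leukocyte genes were lower for 10 of 13 with a median of −0.14, led by Cd52 (−0.76) and Srgn (−1.50), while Lcp1 and Arhgdib were 0.63 and 0.67 higher. Macrophage genes were lower for 8 of 15 with a median of −0.03, where Mrc1 was 0.90 higher and Csf1r differed by −0.52, and B lymphocyte genes were lower for 5 of 9 with a median of −0.06. The part of these cell types in the values of Alas2 and Klf1 was not tested.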

How the data were processed

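Total RNA (300 ng) was labelled with biotin and hybridised to 4 arrays, per the labels' protocols. The deposited values are log2 probe set intensities made by the authors with RMA, per the submitters' processing notes; no version or genome build is named. There were 35556 probe sets. RMA makes array distributions alike and compresses the folds of dim probe sets. Of these, 21789 had 1 symbol, 1621 several and 12146 none listed. Symbols came from the platform's annotation, updated through the RefSeq gene table of GRCm38.p6.

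The 23410 annotated probe sets were fitted with limma 3.58.1 under R 4.3.3 (lmFit, then eBayes with trend off; two-sided tests; 2 residual and 3.11 prior degrees of freedom), with Benjamini-Hochberg adjustment over all of them. The procedure was tested on simulated data. Members and lists were chosen with earlier results of these data known. The naming rule took all members and globins, up to 4 genes of smallest p and every called gene per list, and the 5 profiles closest to Alas2. Genes named beyond it (such as Alas1, Fech, Ank1, Sptb, Tal1, Epor, Nfe2, Car1, Car2 and the T cell genes) were chosen after their values were seen. Depth does not apply to arrays, whose number limits the precision. Scan dates were not used here. Alternatives were other filters, normalizations, gene tables, variance priors, a replicate block and each array left out.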

Additional observations from a re-analysis of the deposited data

How the results depend on the processing

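The differences of Alas2, Klf1 and Slc4a1 kept their direction in each of the 13 alternatives that gave a value, but only the normalizations could have changed it. Other filters, gene tables, variance priors and the replicate block do not alter the difference of a probe set. The groups of these genes did not overlap, so leaving out 1 array could not turn the sign. No member passed the adjusted threshold in any fit of all 4 arrays. The filter at the median level removed all members and gave no value. Epb42 turned to 0.0125 under quantile normalization, 0.0227 under cyclic loess and 0.015 under median centring. In fits without 1 array Gata1 ran from −0.525 to 0.115 and Hemgn from −0.375 to 0.175, both turned without irradiated replicate 2. In limma 6 probe sets were called, against 1 in the table of the brightest probe set per gene (which holds no several-symbol globin probe set), 0 in every row of the table and 0 with the replicate block. All 4 adult globin calls were lost in those last 2 settings, with 0 left; the cause was not tested. In fits without 1 array, 0 probe sets, and so 0 adult globin probe sets, were called, 378 to 7226 passed an unadjusted 0.05 (2214 with all arrays), and 3 to 5 members were lower. Over these fits the member median ran from −0.36 to 0.06, that of the wider erythroid lists from −0.06 to 0.01 and the mean of the adult globin differences from −4.08 to −3.95. Replicate numbers did not pair the arrays (correlation of deviations 0.004 across probe sets). With the replicate block, 1795 probe sets passed an unadjusted 0.05. In this balanced layout the block leaves each difference as it is, so no direction could turn. A group of 2 arrays, and levels near those of genes of other tissues, limit what these differences can show.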

Other observations

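Platelets are the other blood element without a nucleus that is known to carry RNA, and 0 of their 11 measured genes passed the adjusted threshold in limma, with 1 lower and 2 higher at an unadjusted p under 0.05, against 0.0256% of all probe sets called, 4.64% lower and 4.82% higher. Of these 11 platelet and megakaryocyte genes, 7 were lower and 4 higher in irradiated arrays, with a median of −0.08. The chemokine Ppbp measured 5.92 and 5.76 on control arrays and 6.35 and 6.69 on irradiated arrays, a difference of 0.68 (limma adjusted p = 0.445). Pf4, stored with it in platelet granules, was also higher on both irradiated arrays (4.44 and 4.47 against 4.70 and 4.92). Thbs1 was 6.81 and 6.82 against 6.50 and 6.18, a difference of −0.47. Nrgn differed by −0.31. All 11 genes lay inside the span of genes of other tissues on every array.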
